A study of Mus musculus with 15 samples.

Results

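The small leucine-rich proteoglycans (SLRPs) are a family of secreted matrix proteins, and 9 of their genes (Dcn, Bgn, Aspn, Fmod, Lum, Prelp, Omd, Ogn and Podn) were followed among the 56980 genes of the deposited expression table. The members were chosen by family name, with earlier results of these data known. Each of the 9 symbols matched 1 Ensembl identifier in the GENCODE mouse annotation (release M39). RNA-seq had been done on bulk muscle from DBA/2J-mdx mice, which lack dystrophin, so that every group shared this genotype and no healthy mice were among the samples. In the tibialis anterior (TA), a hindlimb muscle, 4 mice received the senolytic pair dasatinib and quercetin (D+Q) and 4 mice received vehicle, 2 times per week for 2 months from 3 to 5 months of age. In the heart, 3 D+Q mice and 4 vehicle mice were treated 2 times per week for 4 months, from 12 to 16 months of age. Tissue, age and length of treatment therefore differed together, and a difference between TA and heart cannot be told apart from a difference of age or of treatment length. All 4 D+Q TA mice were labelled male, against 2 males and 2 females among the vehicle TA mice. By label, the heart groups had 1 male and 2 females under D+Q and 2 of each sex under vehicle.

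SLRPs carry a core of leucine-rich repeats and bind to collagen fibrils, where they set how fibrils pack and how thick they grow. Many also carry glycosaminoglycan chains, and once released from the matrix some bind growth factors such as TGF-β or signal through receptors of innate immunity. In muscle they are made mainly by fibroblasts, tendon cells and other cells of the connective tissue, and decorin and biglycan are known as abundant proteoglycans of the muscle matrix. By sequence and gene structure, Dcn, Bgn and Aspn belong to class I, Fmod, Lum, Prelp and Omd to class II, Ogn to class III, and Podn to class V.

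The values are transcript abundances (TPM), each a share of its library's transcripts corrected for transcript length, so levels of different genes can be set side by side. Read depth is unknown from such values, and the libraries had between 21830 and 25378 genes above 0. Vehicle heart libraries had 24089 to 25378 and D+Q heart libraries 22579 to 22818, ranges that did not overlap. The TA libraries had 23956 to 24393 under vehicle and 21830 to 24146 under D+Q. In bulk tissue, fewer cells of a type and less RNA per cell cannot be told apart. The labelled tissues carried their defining genes, since the summed TPM of 5 skeletal fibre markers was 25879 to 35529 in TA and 1328 to 1782 in heart, and that of 5 cardiac markers was 21148 to 28023 in heart and 29.3 to 128 in TA. In 14 of the 15 libraries Xist and 4 Y-linked genes matched the labelled sex. The exception was D+Q heart replicate 3, labelled male, in which Xist stood at 47.2 TPM and no Y-linked gene exceeded 0.0279 TPM. By expression all 3 D+Q hearts were therefore female, against 2 females and 2 males under vehicle. The heart results below include replicate 3 under its labelled sex. The heart differences of Fmod, Podn, Dcn and Ogn are also given without it.

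Several of the 9 genes lie close together in the genome (GRCm39). Dcn (chr10:97315275-97358155, plus strand) and Lum (chr10:97400990-97408577, plus strand) are 42.8 kb apart, and Prelp (chr1:133837335-133857971, minus strand) and Fmod (chr1:133964992-133976015, plus strand) are 107.0 kb apart. Aspn (chr13:49697609-49721057), Omd (chr13:49735938-49746298) and Ogn (chr13:49761349-49780412) follow each other on the plus strand of chromosome 13 with gaps of 14.9 kb and 15050 bases. No protein-coding gene lies wholly within any of these gaps. Cenpp, on the opposite strand, overlaps Aspn, Omd and Ogn and runs through both gaps between them. Its own level was 0.294 to 2.02 TPM, and whether strand was used in the quantification is not given in the sources used here. Podn (chr4:107871988-107889534, minus strand) and Bgn (chrX:72527208-72539541, plus strand) have no other family gene beside them.

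The 250 bases before the start of the canonical transcript are shown for 4 members. Fmod is shown because it differed most between the tissues, Dcn because it was the most abundant member, and Ogn and Omd because they are neighbours whose levels lay far apart. The windows are chr1:133964742-133964991 for Fmod, chr10:97315025-97315274 for Dcn, chr13:49761099-49761348 for Ogn and chr13:49735688-49735937 for Omd, all on the plus strand of GRCm39. Letters in capitals mark any of 7 motifs searched on both strands, which were the TATA box TATAAA, the AP-1 site TGANTCA, the CCAAT box (spelled by its name), the SMAD box GTCTAGAC, the GC box GGGCGG, the E-box CATCTG and the MEF2-type motif.
Fmod: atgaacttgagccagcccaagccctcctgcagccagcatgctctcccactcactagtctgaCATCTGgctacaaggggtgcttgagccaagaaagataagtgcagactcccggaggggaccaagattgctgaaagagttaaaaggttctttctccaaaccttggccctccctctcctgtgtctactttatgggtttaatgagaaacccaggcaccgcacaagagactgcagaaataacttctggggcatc
Dcn: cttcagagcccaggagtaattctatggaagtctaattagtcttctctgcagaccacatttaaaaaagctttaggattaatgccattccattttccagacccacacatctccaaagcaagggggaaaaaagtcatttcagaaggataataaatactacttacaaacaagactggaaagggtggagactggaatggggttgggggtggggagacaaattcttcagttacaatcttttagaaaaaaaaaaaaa
Ogn: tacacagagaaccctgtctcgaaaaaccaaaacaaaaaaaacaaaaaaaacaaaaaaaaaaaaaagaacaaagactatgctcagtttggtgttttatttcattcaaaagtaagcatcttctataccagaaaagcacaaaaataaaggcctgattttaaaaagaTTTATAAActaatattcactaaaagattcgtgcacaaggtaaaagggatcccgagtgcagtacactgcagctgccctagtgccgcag
Omd: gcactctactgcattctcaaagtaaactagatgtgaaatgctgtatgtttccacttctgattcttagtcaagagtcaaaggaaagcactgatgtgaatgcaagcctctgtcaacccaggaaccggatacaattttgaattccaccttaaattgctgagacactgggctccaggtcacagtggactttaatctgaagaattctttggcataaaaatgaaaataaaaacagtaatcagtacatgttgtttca
The only capitals in Fmod are 1 CATCTG, which 13% of 21770 protein-coding promoters of this length held. Ogn has TATAAA on both strands at overlapping positions, 80 to 87 bases before its start, and 11.9% of promoters held that motif. Neither Dcn nor Omd held any of the 7, nor did Lum or Prelp, which says only that these letters are not in those windows. Aspn held TATAAA and CCAAT (36.5% of promoters), and Bgn and Podn held GGGCGG (36.3% of promoters). The AP-1 site (6.17% of promoters), the SMAD box (0.239%) and the MEF2-type motif (0.133%) were in no member's window. The 9 windows held between 0 and 24 CpG dinucleotides, against a median of 8 over all promoters. Podn had 24, and the other 8 members had 7 or fewer, with 0 in Dcn and Lum.

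The members spanned a wide range of levels. Their order by mean TPM was the same in both heart groups, differed between the TA groups only in the place of Lum, and differed between TA and heart. Dcn was first and Bgn second in all 4 groups, and Omd was last in all 4. Dcn exceeded Bgn in each of the 15 mice. Fmod took the third place in both TA groups, where it exceeded the next gene in 3 of 4 vehicle mice (over Lum) and 4 of 4 D+Q mice (over Aspn), and the eighth place in both heart groups. Ogn held the seventh place in both TA groups and the third in both heart groups, where it exceeded Lum in 4 of 4 vehicle and 3 of 3 D+Q mice. Between them in TA stood Lum, Aspn and Prelp, whose ranges overlapped their neighbours' ranges, each exceeding the next in 3 of 4 mice of either group. In the heart the order of the middle genes was Lum, Prelp, Aspn, Podn, with each above the next in every mouse, and Podn exceeded Fmod in 3 of 4 vehicle and 3 of 3 D+Q hearts.

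**Figure D1:**
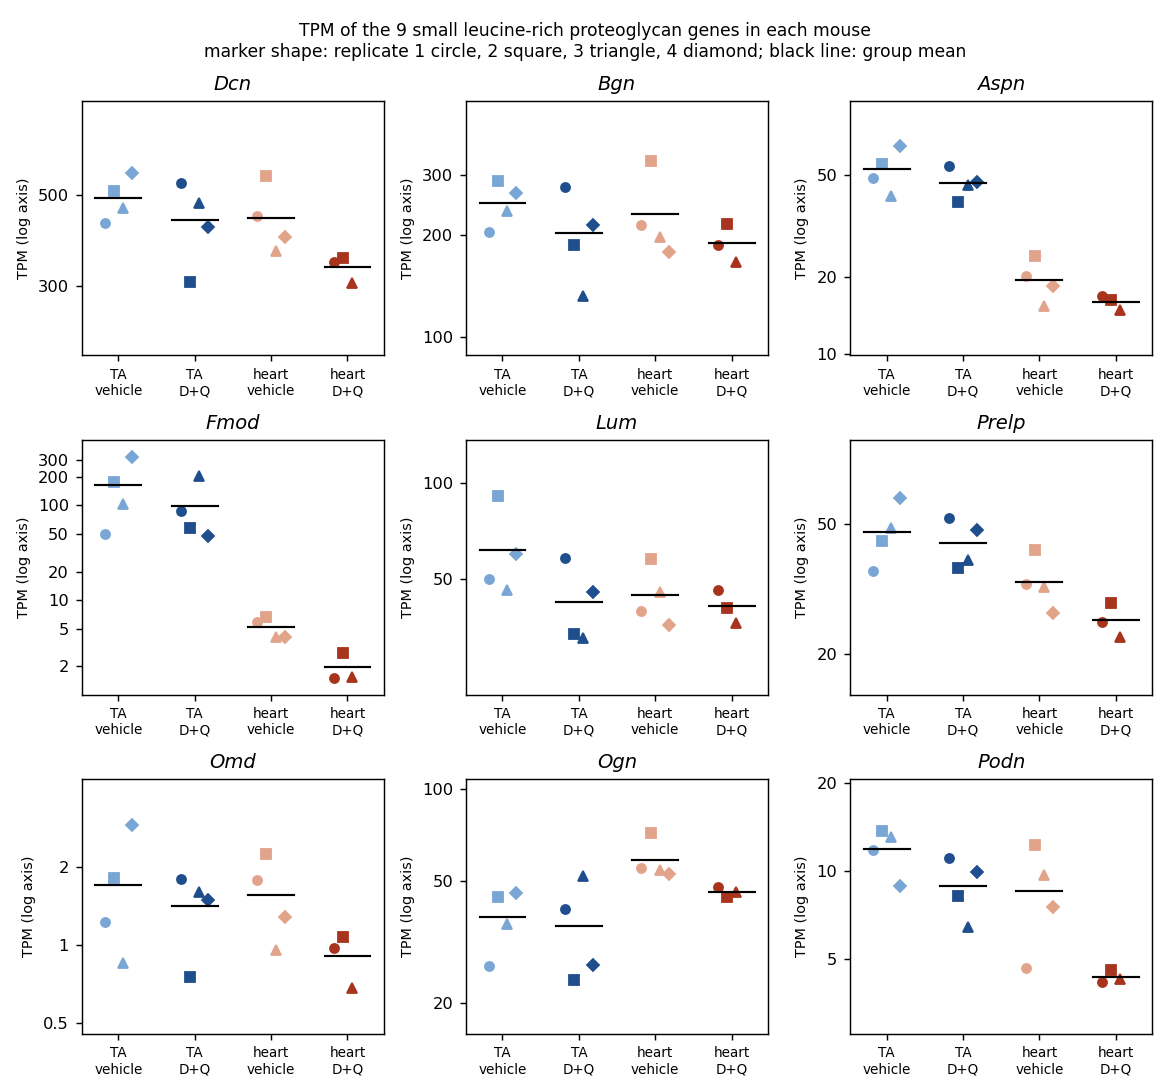
TPM of each of the 9 genes on a log axis in every mouse, by tissue and treatment, with a black line at the group mean and a marker shape for the replicate number. Fmod and Aspn sit higher in TA than in heart without overlap, Ogn sits higher in vehicle hearts than in vehicle TA, and Dcn, Fmod, Ogn and Podn are lower in each of the 3 D+Q hearts than in each vehicle heart.

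The summed TPM of the 9 genes was 1119 ± 243 (SD, n = 4) in vehicle TA, 916 ± 182 (n = 4) in D+Q TA, 842 ± 181 (n = 4) in vehicle heart and 659 ± 55.3 (n = 3) in D+Q heart. The ranges of the vehicle and D+Q sums overlapped in TA (856 to 1401 against 694 to 1118) and did not overlap in heart (719 to 1104 against 598 to 705). Dcn and Bgn together made up 67.3% ± 6.33 of the sum in vehicle TA, 69.8% ± 5.60 in D+Q TA, 79.5% ± 1.33 in vehicle heart and 79.3% ± 0.906 in D+Q heart. Fmod contributed 5.77 to 23.2% of the sum in vehicle TA and 5.55 to 20.6% in D+Q TA. In the heart its share was 0.564 to 0.7097% under vehicle and 0.225 to 0.397% under D+Q, ranges that did not overlap. Ogn supplied 3.11 to 3.66% in vehicle TA and 6.48 to 7.52% in vehicle heart.

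**Figure D2:**
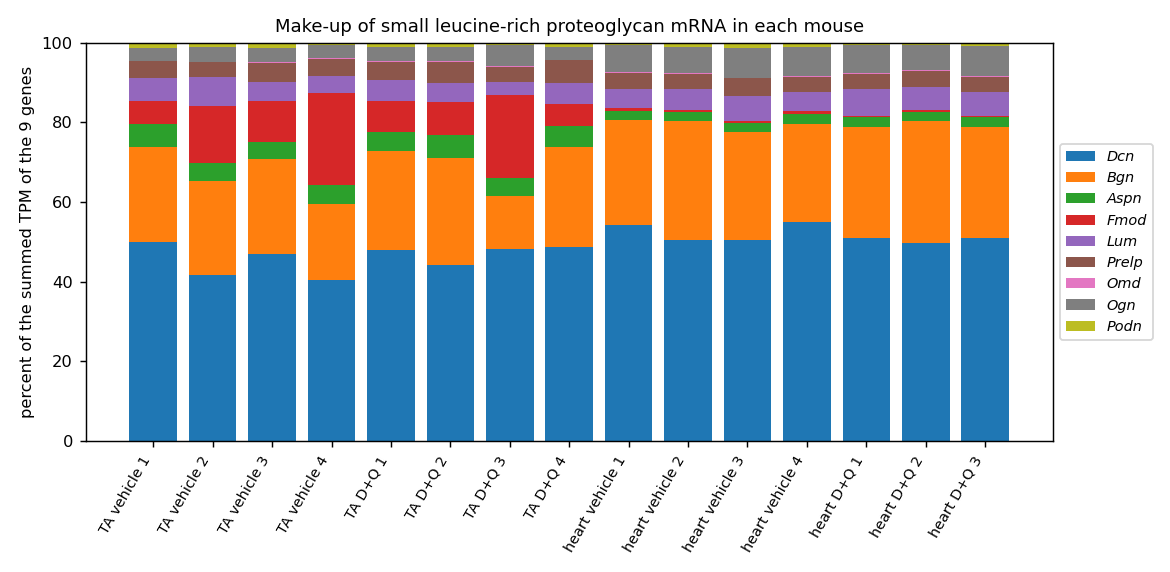
Percent of the summed TPM of the 9 genes supplied by each gene, as a stacked bar for each of the 15 mice. Dcn and Bgn fill 59.5 to 73.9% of the bar in TA and 77.6 to 80.5% in heart, and the Fmod segment ranges from 5.55 to 23.2% in TA and is at most 0.7097% in heart.

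Differences were tested with limma on log2(TPM + 0.5) over all genes that passed a filter on low TPM, a test in which all 9 members were included. A gene was called changed at a Benjamini-Hochberg adjusted p below 0.05 together with a log2 fold change beyond 0.5 in either direction. These log2 values are differences on the log2(TPM + 0.5) scale, which understates the change of low genes such as Omd. Each p-value sets a difference against the spread between mice left within the groups of its fit, pooled over those groups. For each gene, limma drew that spread toward a trend estimated over all genes tested, so it is not the gene's own spread alone.

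Dcn encodes decorin, which carries a single chondroitin or dermatan sulfate chain, binds collagen I and can bind TGF-β. In TA its TPM was 428, 512, 466 and 568 in vehicle replicates 1 to 4 and 537, 307, 479 and 419 in D+Q replicates 1 to 4. In heart it was 445, 557, 366 and 395 in vehicle replicates 1 to 4 and 344, 351 and 304 in D+Q replicates 1 to 3. The TA groups overlapped, with the lowest value in D+Q replicate 2, whereas the 3 D+Q hearts all lay below the lowest vehicle heart. The heart difference was −0.41 on the log2 scale (SE 0.14, adjusted p = 0.190), which did not pass the threshold, and the TA difference was −0.23 (SE 0.18, adjusted p = 0.999). Without vehicle heart replicate 3, whose Dcn was the lowest of the vehicle hearts, the heart difference was −0.57 with an adjusted p of 0.0466 and would be called. Between tissues Dcn differed by 0.17 (SE 0.16) in vehicle mice and by 0.36 (SE 0.18) in D+Q mice, neither called. Without D+Q TA replicate 2 the latter was 0.52 (adjusted p = 0.0150) and would be called.

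Bgn encodes biglycan, the closest relative of decorin, which carries 2 such chains and at the muscle membrane binds proteins of the dystrophin complex. Its TPM was 205, 288, 236 and 266 in vehicle TA and 277, 187, 133 and 214 in D+Q TA, in replicate order. The hearts had 215, 332, 197 and 178 under vehicle and 186, 216 and 167 under D+Q. Both tissues showed overlap between treatments, and D+Q TA replicate 3 was the lowest of all 15 mice. The fitted D+Q difference was −0.44 (SE 0.17, adjusted p = 0.999) in TA and −0.30 (SE 0.17, adjusted p = 0.417) in heart. The ratio of Dcn to Bgn was 1.78 to 2.13 in vehicle TA, 1.64 to 3.61 in D+Q TA, 1.68 to 2.22 in vehicle heart and 1.62 to 1.84 in D+Q heart, and the value of 3.61 belonged to D+Q TA replicate 3. The Bgn difference between the tissues was 0.14 (SE 0.21) in vehicle and 0.05 (SE 0.23) in D+Q mice, not called.

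Aspn encodes asporin, a class I protein with a run of aspartates at its N-terminus and no glycosaminoglycan chain, known for binding collagen and TGF-β. In TA it stood at 48.7, 55.2, 41.5 and 65.0 TPM under vehicle and 54.1, 39.2, 45.8 and 46.8 under D+Q. The heart values were 20.2, 24.0, 15.3 and 18.4 under vehicle and 16.9, 16.3 and 14.8 under D+Q. Every TA value exceeded every heart value, while the treatments overlapped in both tissues. Aspn was called higher in TA than in heart in vehicle mice (log2 difference 1.41, SE 0.15, adjusted p = 1.73e-06) and in D+Q mice (1.51, SE 0.16, adjusted p = 2.14e-06). Its D+Q difference was −0.16 (SE 0.17) in TA and −0.27 (SE 0.15) in heart, neither called.

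Fmod encodes fibromodulin, a keratan sulfate proteoglycan of tendon and cartilage that acts in collagen fibril growth and crosslinking. Vehicle TA muscles had 49.4, 176, 104 and 325 TPM and D+Q TA muscles had 86.3, 58.1, 205 and 47.6 TPM. Hearts had 5.82, 6.60, 4.09 and 4.08 TPM under vehicle and 1.52, 2.80 and 1.54 TPM under D+Q. Fmod varied more between TA mice than any other member, by 6.57 times between the lowest and highest vehicle mouse and by 4.30 times among D+Q mice. All TA values lay far above all heart values, and the 3 D+Q hearts lay below all 4 vehicle hearts. The log2 difference between TA and heart was 4.57 (SE 0.50, adjusted p = 2.10e-06) in vehicle mice and 5.14 (SE 0.54, adjusted p = 1.44e-06) in D+Q mice, both called. In heart, the D+Q mean was 37.9% of the vehicle mean. The log2 difference there was −1.25 (SE 0.24), larger in size than that of any other member, yet its adjusted p of 0.0934 did not pass the threshold. The paper names Fmod among the downregulated genes of D+Q hearts, from DESeq2 on counts at the same thresholds. The TA difference between treatments was −0.43 with an SE of 0.54 (adjusted p = 0.999).

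Lum encodes lumican, a keratan sulfate proteoglycan of cornea, skin and muscle that regulates fibril diameter. TA values were 50.1, 91.3, 46.2 and 59.9 TPM under vehicle and 58.2, 33.6, 32.6 and 45.5 TPM under D+Q. Heart values were 39.7, 57.7, 45.6 and 35.8 TPM under vehicle and 46.4, 40.7 and 36.4 TPM under D+Q. Its treatments overlapped in both tissues, and the hearts were closer to each other than the TA muscles were. Among members Lum had the most negative TA difference, −0.60 (SE 0.24, adjusted p = 0.999), and the smallest heart difference, −0.16 (SE 0.10, adjusted p = 0.458), and it was called in no comparison. Lum and Bgn had the most similar profiles of any pair of members over the 15 libraries, with a root-mean-square difference of 0.22 between their centred log2 profiles.

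Prelp encodes a class II protein with a basic N-terminus that binds heparan sulfate and collagen and is known from cartilage and basement membranes. It measured 35.9, 44.4, 48.6 and 60.1 TPM in vehicle TA and 52.1, 36.6, 38.9 and 47.8 TPM in D+Q TA. The corresponding heart values were 32.7, 41.5, 32.0 and 26.7 TPM under vehicle and 25.2, 28.7 and 22.6 TPM under D+Q. In heart only D+Q replicate 2 exceeded the lowest vehicle mouse, replicate 4. The heart difference was −0.41 (SE 0.12, adjusted p = 0.144), not called. D+Q mice had more Prelp in TA than in heart (log2 difference 0.76, SE 0.18, adjusted p = 0.00292), which was called. In vehicle mice that difference was 0.4955 (SE 0.17, adjusted p = 0.0246), just short of the fold threshold. Omd encodes osteomodulin, a class II protein of bone and dentine, and was the lowest member. TPM values for Omd were 1.23, 1.82, 0.854 and 2.92 in vehicle TA and 1.80, 0.750, 1.61 and 1.496 in D+Q TA. In the hearts they were 1.78, 2.25, 0.953 and 1.28 under vehicle and 0.972, 1.07 and 0.681 under D+Q. Omd ranges overlapped in both tissues, no comparison called it, and its heart difference was −0.54 (SE 0.24, adjusted p = 0.305). Its level lay near that of Cenpp on the opposite strand.

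Ogn encodes osteoglycin, also called mimecan, a class III protein made by fibroblasts and other mesenchymal cells. Levels of 26.6, 44.5, 36.3 and 45.7 TPM were found in vehicle TA and 40.7, 23.9, 52.0 and 26.7 TPM in D+Q TA. Vehicle hearts had 55.3, 71.6, 54.5 and 52.6 TPM and D+Q hearts had 47.8, 44.3 and 46.2 TPM. Ogn was the only member called higher in heart, with every vehicle heart above every vehicle TA (log2 difference TA minus heart −0.63, SE 0.22, adjusted p = 0.0298). This call was lost without vehicle TA replicate 1 (−0.46, adjusted p = 0.104), vehicle TA replicate 3 (−0.61, adjusted p = 0.0590) or vehicle heart replicate 2 (−0.53, adjusted p = 0.0884). In D+Q mice the difference was −0.43 (adjusted p = 0.161), and the TA and heart ranges overlapped through D+Q TA replicate 3. All 3 D+Q hearts lay below the vehicle hearts, with a log2 difference of −0.35 (SE 0.10, adjusted p = 0.157). Ogn exceeded its neighbour Omd in all 15 mice, by 15.7 to 67.9 times. Aspn exceeded Ogn in 4 of 4 vehicle and 3 of 4 D+Q TA muscles and in 0 of the 7 hearts, so these neighbours on chromosome 13 had opposite orders in the tissues.

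Podn encodes podocan, a class V protein found around smooth muscle cells and in the matrix of several organs. In TA it was 11.8, 13.7, 13.1 and 8.88 TPM under vehicle and 11.1, 8.24, 6.46 and 9.92 TPM under D+Q. In heart it was 4.67, 12.3, 9.72 and 7.56 TPM under vehicle and 4.18, 4.59 and 4.28 TPM under D+Q. The 3 D+Q hearts were close to each other (SD 0.217 TPM) and below all vehicle hearts, although vehicle heart replicate 1 came close to them. The D+Q mean in heart was 50.8% of the vehicle mean (log2 difference −0.91, SE 0.22, adjusted p = 0.117), not called, and the TA difference was −0.52 (SE 0.16, adjusted p = 0.999). Podn was called higher in TA than in heart in D+Q mice (0.93, SE 0.26, adjusted p = 0.00803) and not in vehicle mice (0.51, SE 0.24, adjusted p = 0.0970).

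**Figure D3:**
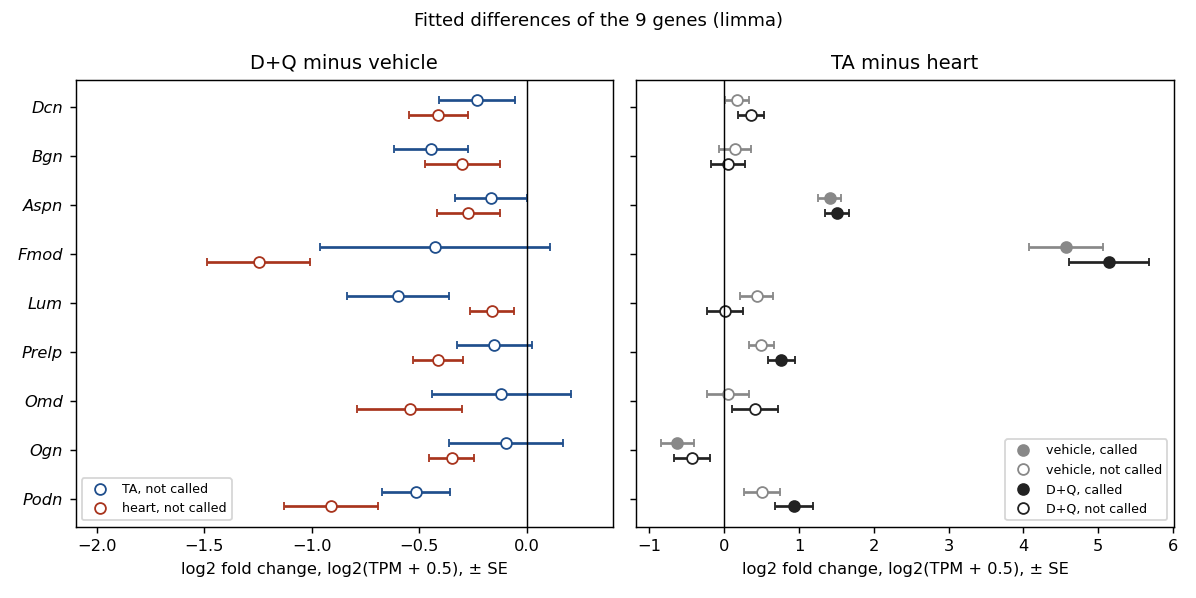
Fitted log2 fold changes of the 9 genes with their standard errors on the log2(TPM + 0.5) scale, D+Q minus vehicle in TA and heart on the left and TA minus heart in vehicle and D+Q mice on the right, with filled points for called genes. All 18 points on the left are below 0 and open, and on the right Fmod stands near 5 and Aspn near 1.5 in both treatments.

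Whether senolytic treatment changed these matrix genes in the heart was the first comparison of treatments. All 9 members had lower fitted values in D+Q than in vehicle hearts, and none was called, while 0.316% of the 16132 genes tested were called (17 higher and 34 lower). Over all genes 50.5% of the fitted differences were negative. For the heart too, the paper reports genes changed in both directions, from DESeq2 on counts at the same thresholds. With TPM rescaled by median-of-ratios size factors the calls over all genes were 10 higher and 34 lower. Leaving out any 1 heart moved the count of calls by over 1.5 times, from 0 without vehicle replicate 2 to 64 higher and 72 lower without vehicle replicate 3. The members' median difference was −0.41 against 0.00 for all genes tested. In 4 of the 9 (Dcn, Fmod, Ogn and Podn) each D+Q heart was below each vehicle heart, against 5.57% of genes tested. For Fmod and Podn the difference was below −0.5 with an unadjusted p below 0.05, which held for 3.79% of genes tested. All 9 differences remained negative in each of 16 alternative fits. Without D+Q heart replicate 3, whose sex label was in doubt, the differences were −1.15 for Fmod, −1.23 for Podn, −0.38 for Dcn and −0.44 for Ogn (adjusted p from 0.207 to 0.487). With sex read from expression in place of labelled sex, none of the 9 was called. Podn was then at −1.24, Lum at −0.32 and Aspn at −0.26.

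One vehicle heart stood above the others for the whole family. Among vehicle hearts replicate 2 had the highest value of all 9 members, with Bgn at 144%, Podn at 144% and Omd at 143% of the vehicle mean. Leaving it out gave −1.12 for Fmod, −0.75 for Podn, −0.27 for Dcn and −0.23 for Ogn, and for Bgn −0.10 and for Lum −0.06 (adjusted p from 0.219 to 0.794).

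**Figure D4:**
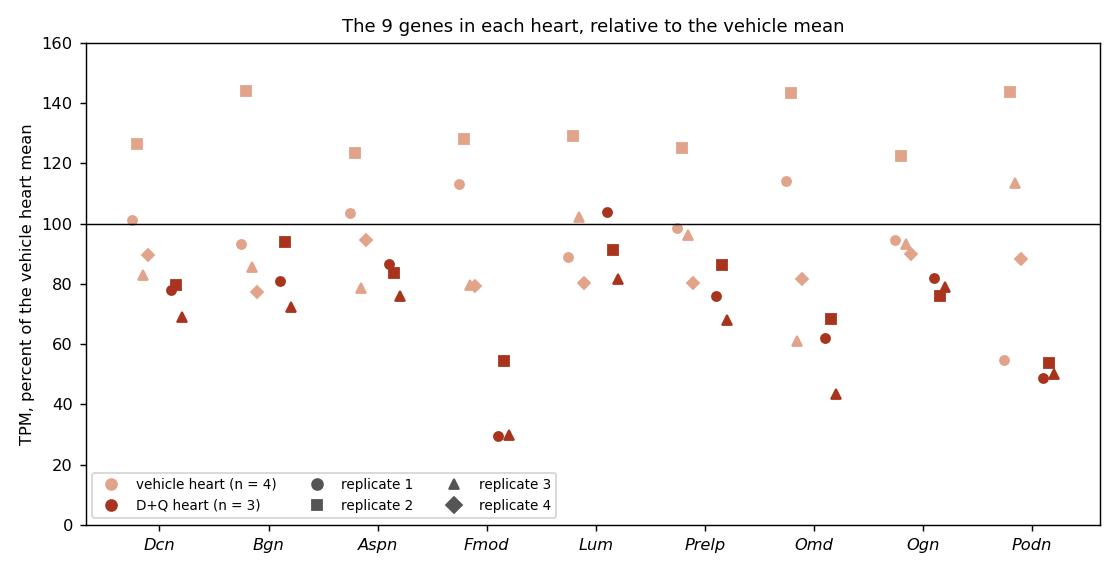
TPM of each of the 9 genes in each heart as a percent of the vehicle heart mean (line at 100), with vehicle hearts in light and D+Q hearts in dark colour and a marker shape for the replicate number. Vehicle replicate 2 is highest for all 9 genes, and the D+Q hearts lie at 29.5 to 54.5% for Fmod and at 48.8 to 53.6% for Podn.

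Markers of atrial muscle and of the epicardium were read in the same heart fit. Myl7, the atrial myosin regulatory light chain, was at 94.1, 730, 541 and 283 TPM in vehicle replicates 1 to 4 and at 3.99, 4.54 and 3.46 TPM in the D+Q hearts. Of the 4 atrial markers Myl4, Myl7 and Sln were called lower, with log2 differences of −6.12, −6.38 and −5.46 (adjusted p = 0.00668, 0.00904 and 0.00997), and Nppa had −1.61 (adjusted p = 0.126). The summed TPM of the 4 was 862 to 4260 in vehicle and 382 to 427 in D+Q hearts. The 5 epicardial and mesothelial markers summed to 17.1 to 24.1 TPM in vehicle and 12.0 to 14.8 TPM in D+Q hearts, with Upk3b at −0.99 (adjusted p = 0.0810), and all 5 had negative differences, none called. No marker of either list was below 0.1 TPM in every heart of a group. Vehicle replicate 2, highest for all 9 members, was also highest for all 4 atrial markers. Its summed fibroblast (353 TPM), macrophage and leukocyte (232), smooth muscle and pericyte (600) and endothelial (179) markers were also the highest of the vehicle hearts. Its cardiac muscle markers (21148 TPM) summed lowest, and its tendon, epicardial, and cartilage and bone markers were not the highest. Podn, alone among the 9 members, ranked the 4 vehicle hearts as Myl7 did (replicates 2, 3, 4 and 1). Replicate 1, lowest of them in Myl7 and Podn, was second highest in Fmod, Dcn, Aspn, Bgn, Omd, Prelp and Ogn. In Lum it exceeded replicate 4 only. The 9 fibroblast markers, from the cells that make most SLRPs, summed to 248 to 353 TPM in vehicle and 236 to 291 TPM in D+Q hearts, with 8 of 9 differences negative, a median of −0.28 and none called. The 5 cardiac muscle markers summed to 21148 to 23391 TPM in vehicle and 26500 to 28023 TPM in D+Q hearts. All 5 had positive differences, with a median of 0.27 and none called, and TPM is a share of each library. The part of these other genes in the members' differences was not tested.

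In TA, the comparison of treatments called none of the 9 members and no gene at all (0% of 16298 genes tested by limma), and 488 genes had an unadjusted p below 0.05. The paper reports genes changed in both directions in TA, with more raised than lowered. Its calls came from DESeq2 on counts at the same thresholds, a different fit from the one here. In the limma fit the lean was the other way. With an unadjusted p below 0.05, 80 genes were above 0.5 and 280 below −0.5. All 9 fitted differences were negative, from −0.10 for Ogn to −0.60 for Lum, with a median of −0.23 against −0.07 for all genes, of which 66.4% had negative differences. Lum and Podn were below −0.5 with an unadjusted p below 0.05, as were 1.72% of genes tested. In none of the 9 was each D+Q muscle below each vehicle muscle, which held for 1.25% of genes. This fit included 1 surrogate variable, an estimated axis of unlabelled variation, which was highest in D+Q replicate 1 and lowest in D+Q replicate 3. Leaving out each TA muscle in turn left 6 to 9 of the members negative, with 6 without D+Q replicate 3. The difference of Dcn came to −0.042 and that of Fmod to −0.087 without D+Q replicate 2, and that of Bgn to −0.098 without D+Q replicate 3. With labelled sex in place of the surrogate variable, 4 of the 9 differences were negative, and Fmod was at 0.22, Omd at 0.28 and Ogn at 0.13. Among males, Fmod was 49.4 and 104 TPM in the 2 vehicle muscles and 47.6 to 205 TPM in the 4 D+Q muscles, and the 2 female vehicle muscles had 176 and 325 TPM.

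The TA muscles highest in Fmod were also the highest in some, though not all, of the tendon genes read here. Across all 15 libraries, the 3 non-member genes with profiles closest to Fmod were Tnmd (root-mean-square difference of centred log2 profiles 0.40), Thbs4 (0.53) and Kera (0.57), out of 14112 genes compared. Tnmd encodes tenomodulin, a marker of tendon cells, and was 11.3, 40.6, 15.3 and 45.3 TPM in vehicle TA and 21.5, 8.22, 30.2 and 10.5 TPM in D+Q TA. Kera encodes keratocan, a class II SLRP outside the 9, and was 3.98, 26.9, 10.9 and 35.3 TPM in vehicle TA and 10.3, 3.25, 13.2 and 5.74 TPM in D+Q TA. For Fmod, Kera and Chad, the 3 highest TA muscles were vehicle replicates 2 and 4 and D+Q replicate 3. The same held for Tnmd, Comp, Scx and Mkx of the 6 tendon markers read here. These genes were named after their values were seen. Thbs4 did not share this, since D+Q replicate 1 (219 TPM) exceeded D+Q replicate 3 (208 TPM), and Egr1 was lowest in D+Q replicate 3. The 6 tendon markers summed to 300.2 to 467 TPM in vehicle and 208 to 711 TPM in D+Q TA, and to 27.1 to 77.6 and 20.2 to 22.6 TPM in the hearts for vehicle and D+Q. Of these Egr1, a transcription factor that also responds to stress, ranged from 9.01 to 448 TPM in TA, and none of the 6 was under 0.1 TPM in every TA muscle. In the hearts 4 of the 6 were tested and none was called, with Comp at −1.49, Egr1 at −1.55 and Thbs4 at −0.35 (adjusted p = 0.118, 0.166 and 0.503). Scx, a transcription factor of tendon cells, was at 0.38 (adjusted p = 0.206), with each D+Q heart above each vehicle heart. That separation held for 1553 of the 16132 genes tested in heart. The labels do not give the amount of tendon in a sample, and its part in the Fmod differences was not tested. The profile of Fmod differed from those of the other 8 members by 1.81 to 2.72 on the same scale, and no pair among those 8 differed by more than 1.02. All these profile differences span both tissues. They therefore include the gap between TA and heart and do not describe variation between TA muscles alone.

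**Figure D5:**
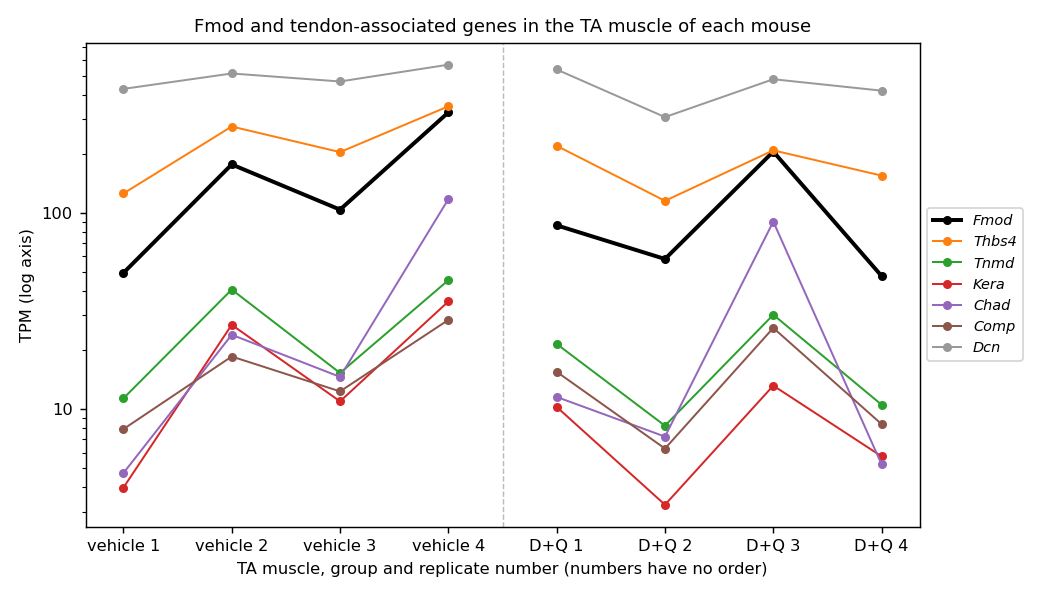
TPM on a log axis of Fmod, 5 tendon-associated genes (Thbs4, Tnmd, Kera, Chad and Comp) and Dcn in the TA muscle of each of the 8 mice, with lines joining the values of a gene within a treatment. Fmod, Tnmd, Kera, Chad and Comp share their 3 highest mice (vehicle 2 and 4 and D+Q 3), and Dcn stays between 307 and 568 TPM.

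The tissue comparison asked how the family differed between young TA and older heart. In vehicle mice 2 of 9 members (Aspn and Fmod) were called higher in TA and 1 (Ogn) lower, where 22.6% of 17868 genes were called higher and 14.1% lower. In D+Q mice 4 of 9 (Aspn, Fmod, Prelp and Podn) were called higher and 0 lower, where 21.4% were called higher and 15.9% lower. The median of all genes lay at 0.16 in vehicle and 0.09 in D+Q mice, and the members' median at 0.44 and 0.42. Rescaling by median-of-ratios size factors moved the median of all genes in vehicle mice to −0.01 and the calls from 4038 higher and 2518 lower to 2881 higher and 3313 lower. Under that rescaling the calls of the members kept their direction, and the small differences of Dcn, Bgn and Omd in vehicle mice turned negative (−0.02, −0.06 and −0.09). None of the 9 passed a test of whether the D+Q difference itself differed between TA and heart (adjusted p from 0.941 to 0.991), where 0.0616% of genes were called. The fitted TA-minus-heart contrasts of the D+Q difference ran from −0.43 for Lum (SE 0.33) to 0.57 for Fmod (SE 0.73). The treatment difference in the heart and the tissue difference in D+Q mice both rest on the same 3 D+Q hearts. With D+Q heart replicate 3 left out, the same number of members (4 higher, 0 lower) were called between tissues in D+Q mice.

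Outside the 9 members, 8 further genes of the family were followed. In TA Chad, encoding chondroadherin of class IV, was 4.72, 23.9, 14.6 and 117 TPM under vehicle and 11.5, 7.24, 90.1 and 5.23 TPM under D+Q, while no heart exceeded 0.980 TPM. Kera and Chad were called higher in TA than in heart in vehicle mice (log2 differences 4.85 and 4.58, adjusted p = 1.67e-06 and 0.000418) and in D+Q mice (3.92 and 4.56). Ecm2, the neighbour of Aspn, ranged from 10.7 to 21.8 TPM over all mice, and Tsku (tsukushi) from 1.25 to 6.01 TPM, and neither was called in any comparison. Epyc (epiphycan), which follows Kera on chromosome 10, was 0.387, 0.803, 0.517 and 0.249 TPM in the vehicle hearts and was listed at 0 in the 3 D+Q hearts. Epyc did not pass the filter in the heart fit and was not tested. Each D+Q heart library also had fewer genes above 0 than any vehicle heart library. Optc, Nyx and Podnl1 stayed below 0.5 TPM in every mouse. None of the 4 members of this list tested in TA, nor the 2 tested in heart, was called between treatments.

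Genes that build, bind or cleave SLRPs were read in the same fits. Over all genes tested, 22.6% were called higher and 14.1% lower in vehicle TA than in vehicle heart. Of 12 collagens, including the fibrillar collagens that SLRPs coat, 11 were called higher in TA than in heart in vehicle mice, with a median log2 difference of 2.63 and Col1a1 at 3.40 (SE 0.23, adjusted p = 7.37e-09). Under D+Q none of the 12 was called in TA, where all 12 differences were negative (median −0.45, Col6a3 −0.59). None of the 11 tested in heart was called, where 10 were negative (median −0.35). In those hearts Col3a1 was at −0.40 and Col1a2 at −0.55 (adjusted p = 0.0934 and 0.0977), while Col5a3 was at 0.50 (adjusted p = 0.0980). Of 20 genes for the linkage region and for chondroitin or dermatan sulfate, the chains of Dcn and Bgn, 7 were called higher and 1 lower in vehicle TA than in heart (median 0.27). Csgalnact2, which starts chondroitin chains, was at 1.06 (adjusted p = 2.49e-07) and Xylt1, the xylosyltransferase that adds the first sugar, at 1.13 (adjusted p = 0.000516). No gene of this list was called between treatments in either tissue (19 tested in each, medians −0.08 in TA and −0.11 in heart), with Dsel, a dermatan sulfate epimerase, at −0.48 in heart (adjusted p = 0.112). Of 7 keratan sulfate genes, which act on Fmod and Lum, 5 were tested between tissues and 1 was called, Chst1, at −0.59 in vehicle mice (adjusted p = 0.0101), and none was called between treatments.

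Among 12 processing and cleavage enzymes, 6 of the 11 tested were called higher in TA than in heart in vehicle mice (median 1.00), including the matrix metalloproteinase Mmp2 at 1.74 (adjusted p = 6.72e-07) and the crosslinking enzyme Lox at 2.91 (adjusted p = 2.06e-06). Between treatments none was called in TA (median −0.20) or heart (median −0.20). Of 8 ligands that SLRPs bind, 4 were called higher and 1 lower in vehicle TA than in heart, with Mstn, which encodes myostatin, at 4.32 (adjusted p = 2.87e-10) and Tgfb3 at 0.95 (adjusted p = 5.17e-05). All 7 ligands tested in heart had negative D+Q differences (median −0.29), none called, with Ccn2 at −0.90, Tgfb2 at −0.71 and Tgfb3 at −0.60 (adjusted p = 0.0934, 0.110 and 0.115). In TA none of the 8 was called (6 negative, median −0.11). Of 10 receptors for soluble SLRPs, 3 were called higher and 2 lower in vehicle TA than in heart, beside 22.6% and 14.1% of all genes. Among them were Egfr at 2.16 (adjusted p = 1.91e-08) and Erbb4 at −3.07 (adjusted p = 1.59e-10). None of the receptors was called between treatments, with a median of −0.14 in TA and −0.05 in heart. In TA none of 6 membrane partners of biglycan in muscle was called. Musk was at 0.48 (adjusted p = 0.999), with each D+Q muscle above each vehicle muscle, which held for 43 of the 16298 genes tested in TA.

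Genes outside the family with profiles closest to each of the other members were found in the same way. For Aspn they were Prrx1 (root-mean-square difference 0.15), a transcription factor of mesenchymal cells, Sparc (0.16), a collagen-binding matrix protein, and Ldlrad3 (0.18). For Dcn they were Golm2, Uimc1 and Fam114a1 (0.15 to 0.17), for Bgn Dap, Man1a2 and Naalad2 (0.12 to 0.16), and for Lum Naalad2, Lsamp and Colec12 (0.17 to 0.19). Those of Prelp were Olfml3, Hipk1 and Brd2 (0.17 to 0.18), those of Omd Rps12-ps3, Bbs9 and Golm2 (0.24 to 0.26), and those of Ogn Dcun1d4, 9930111J21Rik2 and Vit (0.21 to 0.23). Podn had Stard10, C2 and Abcb1b (0.24 to 0.27). Markers of other cell types were summed as well. In TA the 9 fibroblast markers summed to 266 to 398 TPM under vehicle and 227 to 421 TPM under D+Q. The 5 macrophage and leukocyte markers summed to 265 to 471 and 335 to 672 TPM in TA, and to 137 to 232 and 110 to 182 TPM in heart, vehicle before D+Q in each case. Endothelial, smooth muscle and pericyte, and cartilage and bone markers were called between treatments in neither tissue. In heart, 5 of the 6 smooth muscle and pericyte markers had negative limma differences and 1 a positive one (median −0.29). For 3 of them the difference was below −0.5 with an unadjusted p below 0.05, as for 3.79% of genes tested. Each D+Q heart was below each vehicle heart for 2 of the 6, as for 5.57% of genes tested, and above for 1.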

How the data were processed

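RNA-seq was read from the TA (4 D+Q and 4 vehicle mice) and heart (3 D+Q and 4 vehicle mice), grouped by their labels. The authors trimmed reads with Trim Galore 0.6.10, quantified them on GRCm39 with Salmon 1.10.3 and deposited TPM values for 56980 Ensembl genes, each library summing to 1e+06. The annotation release and the use of strand are not given in the sources used here, and the depth is unknown. Of the identifiers, 56236 matched GENCODE M39. Because TPM values are not counts, limma 3.58.1 (R 4.3.3, trended prior variance) was fitted to log2(TPM + 0.5) over genes that reached 0.5 TPM in 3 or more libraries of the fit, with Benjamini-Hochberg adjustment over all of them. The TA fit had 1 surrogate variable (5 rounds), the heart fit labelled sex, and the tissue and interaction fits used all 15 libraries without a covariate. The labels do not say that mice with the same replicate number belong together, and their deviations from the group means had mean correlations of −0.12 in TA (4 pairs) and 0.0035 in heart (3 pairs), so the numbers were not taken as pairs. Replicate libraries were distinct, with no identical pair. All 9 members were reported in every comparison. From each of the other lists up to 4 genes with the smallest p-values were named, and for each member the 3 genes with the smallest root-mean-square difference between log2(TPM + 0.5) profiles centred over the 15 libraries, among genes with a mean of at least 1 TPM. The members and lists were chosen with earlier results of these data known. Promoter sequences came from the GRCm39 genome and the M39 annotation. The fitting script was tested on simulated data. Alternatives were other pseudocounts, filters, scaling, covariates, a replicate block, and each mouse left out in turn. The membrane partners of biglycan are not reported here for heart.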

Additional observations from a re-analysis of the deposited data

Results flagged for a closer look

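A single mouse stood far from the others of its group in 4 of the 51 gene-by-group sets of 4 mice tested among the 17 genes of the family, and chance flags about 1 in 20 such groups. Ogn was 71.6 TPM in vehicle heart replicate 2, against 52.6 to 55.3 TPM in the other 3 vehicle hearts. Chad, which encodes chondroadherin, was 117 TPM in vehicle TA replicate 4, against at most 23.9 TPM in the other vehicle TA muscles. Chad was also 90.1 TPM in D+Q TA replicate 3, against at most 11.5 TPM in the other D+Q TA muscles. Optc, which encodes opticin, was 0.156 TPM in vehicle TA replicate 2, against at most 0.0707 TPM in the others of that group, a difference at a very low level.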

How the results depend on the processing

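In heart, all 9 members kept negative D+Q differences in every alternative, and 1 was called in 1 of them. Over all genes the counts called higher and lower were 0 and 0 without the filter, 2 and 11 without the trend, and 3 and 22 with sex read from expression, while median-of-ratios rescaling left 10 higher. Leaving out a heart gave 0 to 64 higher and 0 to 72 lower, with 0 of both without vehicle replicate 2 and the highest counts without vehicle replicate 3, and 0 to 1 members called lower (Dcn, without vehicle replicate 3). In an alternative chosen after seeing the data, 4 to 6 members were lower in every D+Q heart when a heart was left out, beside 6.18 to 11.5% of all genes. Leaving out a mouse cannot lower that count. The cause of these changes was not tested. In TA, labelled sex in place of the surrogate variable turned Aspn to 0.0385, Fmod to 0.22, Omd to 0.28, Prelp to 0.0554 and Ogn to 0.13. Leaving out a TA muscle gave 0 to 1 genes called in either direction, and ranges of −0.31 to −0.042 for Dcn, −0.58 to −0.098 for Bgn, −0.89 to −0.087 for Fmod, −0.86 to −0.36 for Lum, −0.59 to −0.42 for Podn, −0.33 to 0.0080 for Aspn, −0.41 to 0.16 for Omd, −0.27 to 0.0875 for Prelp and −0.25 to 0.14 for Ogn. Between tissues in vehicle mice, median-of-ratios rescaling gave −0.0240 for Dcn, −0.0571 for Bgn and −0.0949 for Omd, and 0 members were called lower without the filter (Ogn adjusted p = 0.0612). Leaving out a mouse gave 2 to 4 members called higher and 0 to 1 lower, with Omd from −0.19 to 0.26. In D+Q mice, rescaling gave −0.0638 for Bgn and −0.11 for Lum, and sex read from expression left 1889 genes called lower. Leaving out a mouse gave −0.11 to 0.24 for Bgn, −0.15 to 0.12 for Lum, 4 to 5 members called higher (Dcn added without D+Q TA replicate 2) and 0 to 1 called lower (Ogn, without D+Q TA replicate 3). For the difference of D+Q effects, 8 genes were called higher and 3 lower. That became 5 higher with a pseudocount of 1, 4 and 1 without the filter, and 1 lower with either sex covariate. Bgn then turned to 0.14 with labelled sex and 0.27 with sex read from expression, where Lum was at 0.10. Leaving out a mouse gave 4 to 9 higher and 1 to 7 lower, with Bgn from −0.28 to 0.10, Ogn from −0.0024 to 0.37 and Aspn from −0.010 to 0.20. With a replicate block the counts were 0 and 4 in heart and 4 and 1 for the difference of effects, and Ogn lost its call between vehicle tissues (0 members lower, adjusted p = 0.0517), and no other member's call changed. Replicate numbers name no shared animal or day, so this block has no basis in the labels. TPM values carry no depth, so differences of low genes such as Omd are the least certain.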
